A study of Rattus norvegicus with 20 samples.

Results

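The 29 genes described here were lost when unstimulated rat hippocampal neural stem cells were cultured for 5 d. By the rule below, on mean levels, they counted as kept, at least in part, by sustained CHIR99021. They were selected on measured levels, from 32623 Ensembl gene IDs. The level L of a gene is the log2 of its CPM (reads scaled to a common library total) plus 1. A member had an L of 3 or more in both unstimulated 0 d libraries, and each 0 d value was at least 1.5 above each unstimulated 5 d value. The mean L of the CHIR99021 libraries at 3 and 5 d was also at least 1 above the mean L of the unstimulated 5 d libraries. The first 2 conditions were met by 154 genes, and the 125 of them that missed the third are the comparison set, called lost and not kept.

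The Wnt/β-catenin pathway controls gene expression through the stability of 1 protein, β-catenin. Without a Wnt ligand, a destruction complex containing the kinase GSK-3 phosphorylates β-catenin and marks it for degradation. A Wnt ligand bound to its receptors Frizzled and LRP5/6 inhibits this complex, and the β-catenin that accumulates enters the nucleus and binds TCF/LEF factors. Neural stem cells of the adult hippocampus divide and give rise to neurons and astrocytes, and Wnt signals from their surroundings are known to take part in both processes. The 3 inducers enter the pathway at different points: CHIR99021 inhibits the kinase GSK-3, which has many substrates besides β-catenin, Wnt3a is a ligand, and optoWnt is a transduced, light-responsive form of Wnt signalling.

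The study sequenced mRNA 3′ ends in 20 libraries of adult neural stem cells from Fisher 344 rats, grown with FGF-2 and, for treatment, in basal medium with 0.5% serum. The growth protocol describes cells transduced with optoWnt and selected with puromycin, and the labels call 3 libraries wild-type (0, 3 and 5 d, no inducer) and the other 17 optoWnt. The optoWnt libraries comprised 3 with no inducer (0, 3 and 5 d), 5 with CHIR99021 at 3 mM as the labels write it, 5 with Wnt3a at 100 ng/mL and 4 with light. The inducer was ON for 1, 3 or 5 d, or was withdrawn after 1 d and left OFF for 1 d or 2 d, and light was not sequenced at 5 d. Every stimulated library was thus from optoWnt cells. The titles of the unstimulated 3 d and 5 d libraries carry the word ON, and whether those cells were illuminated is not given. There was 1 library for each combination of genotype, inducer and profile, and the labels do not say whether libraries came from separate cultures, so every p-value below measures only the spread between these libraries.

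Depth ranged from 696463 reads (Wnt3a 1 d ON) to 5935681 (unstimulated optoWnt, 3 d), so that 3 reads correspond to 4.31 and 0.505 CPM, respectively. On the first principal component of all genes, which held 29.4% of the variance, 6 libraries stood apart at −110 to −41.5, while the other 14 lay between 8.9 and 38.7. These were the unstimulated wild-type libraries of 0 and 5 d, light 3 d ON, Wnt3a 5 d ON, and 2 d OFF with CHIR99021 and with Wnt3a. The wild-type pair enters the choice of the members. With the optoWnt unstimulated libraries alone the rule gave 52 genes, 22 of them among the 29 members, and with the wild-type ones alone it gave 544 genes, including 28 of the members. The files pair no ID with a gene symbol, so the members are given by ID, their functions are not stated, and markers of neural stem cells and of other cell types were not looked up. In these bulk libraries fewer cells of a type and less RNA per cell cannot be told apart.

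The 29 members spanned a wide range of levels at 0 d, from 9.42 to 898 CPM with a median of 43.6 CPM. Their summed level was 3122 CPM in wild-type and 2961 CPM in optoWnt cells at 0 d. It was 333 and 316 CPM at 3 d, and 271 and 323 CPM at 5 d. The unstimulated 3 d libraries were not used by the rule. In all 29 members both 3 d values lay below both 0 d values. The rule chose the members for high 0 d values, so this is partly built in, and the same count over all genes was not made. The median member stood at 14.4% of its 0 d level at 3 d (range 0.405% to 38.1%) and at 10.8% at 5 d (range 0.622% to 21.9%). Most of the difference from 0 d was therefore already present at 3 d. The lost and not kept genes stood at medians of 18.7% and 15.9%.

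Under sustained CHIR99021 the summed level of the members was 1695 CPM at 3 d and 1453 CPM at 5 d. The mean of these libraries was a median of 40.3% of the 0 d level per member, with a range of 14.5% to 524%, against a median of 10.1% (range 0 to 46.4%) for the lost and not kept genes. These values chose the members and are a description only. Being kept was mostly partial: 23 members had both CHIR99021 values below both 0 d values, 17 had a CHIR99021 mean under 50% of their 0 d level, and 7 were under 25%. Of the rest, 4 overlapped the 0 d values and 2 lay above them in both CHIR99021 libraries. Both CHIR99021 values lay above both unstimulated 5 d values in 28 of the 29 members, and above both unstimulated 3 d values in 26. The rule partly builds in these counts, and they were not made over all genes. The exception at 5 d was ENSRNOG00000038916, at 7.47 and 5.32 CPM with CHIR99021 against 0 CPM (wild-type) and 9.32 CPM (optoWnt). Between the CHIR99021 libraries no common direction was seen, since 13 of the 29 members were higher at 5 d than at 3 d.

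Near the thresholds, the members with the smallest CHIR99021 margin were at 1.03 and 1.19 (log2), and the nearest genes outside were at 0.93 and 0.84. The smallest falls inside were both 1.53, and those just outside were 1.49 and 1.48. The lowest 0 d levels L inside were 3.02 and 3.22, and those just outside were 2.94 and 2.77. The margin of the members had a median of 1.78 and reached 4.64.

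**Figure D1:**
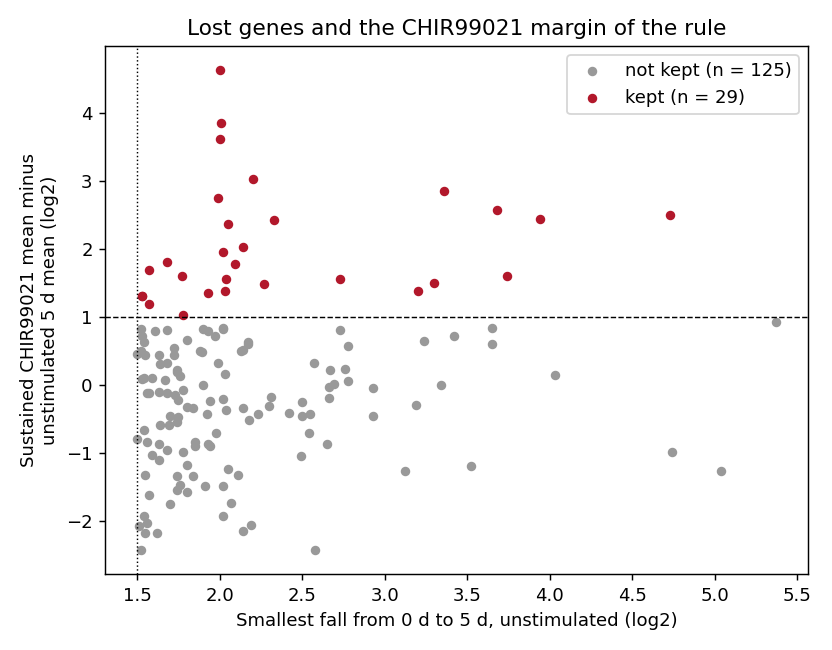
Each point is 1 of the 154 genes lost from 0 d to 5 d, with its smallest unstimulated fall on the x axis and the margin of sustained CHIR99021 over unstimulated 5 d on the y axis (both log2 differences of L). Dashed and dotted lines mark the rule's thresholds of 1 and 1.5, and the 29 members (red) reach margins of up to 4.64.

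The 2 most abundant members at 0 d were strongly reduced and only partly kept. ENSRNOG00000007830 was at 1041 CPM in wild-type and 756 CPM in optoWnt cells at 0 d, 38.7 and 37.1 CPM at 3 d, and 34.9 and 55.7 CPM at 5 d. With CHIR99021 it was at 176, 103 and 182 CPM after 1, 3 and 5 d ON, all above the unstimulated 3 and 5 d values and all far below 0 d. After withdrawal of CHIR99021 it was at 113 CPM (1 d OFF) and 34.5 CPM (2 d OFF), the latter below every unstimulated value. Wnt3a gave 81.8, 32.6 and 62 CPM after 1, 3 and 5 d ON and 43.4 and 15.5 CPM after 1 d and 2 d OFF, and light gave 65.3 and 57.8 CPM after 1 and 3 d ON and 76.3 and 46.6 CPM after 1 d and 2 d OFF. The Wnt3a value at 2 d OFF was the lowest of all 20 libraries, and it came from a library that stood apart.

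ENSRNOG00000018524 was at 205 and 323 CPM at 0 d in wild-type and optoWnt cells, 11.7 and 11.1 CPM at 3 d, and 12.1 and 15 CPM at 5 d. CHIR99021 gave 46.6, 82.6 and 89.1 CPM after 1, 3 and 5 d ON, which separates it from every unstimulated library past 0 d. Wnt3a gave 20.1, 15.1 and 23.4 CPM at the same times, and light 29.9 and 16.5 CPM at 1 and 3 d. At 2 d OFF it was at 19 CPM after CHIR99021, 12.1 CPM after Wnt3a and 11.3 CPM after light, so the last pair lay within the unstimulated range and CHIR99021 above it.

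**Figure D2:**
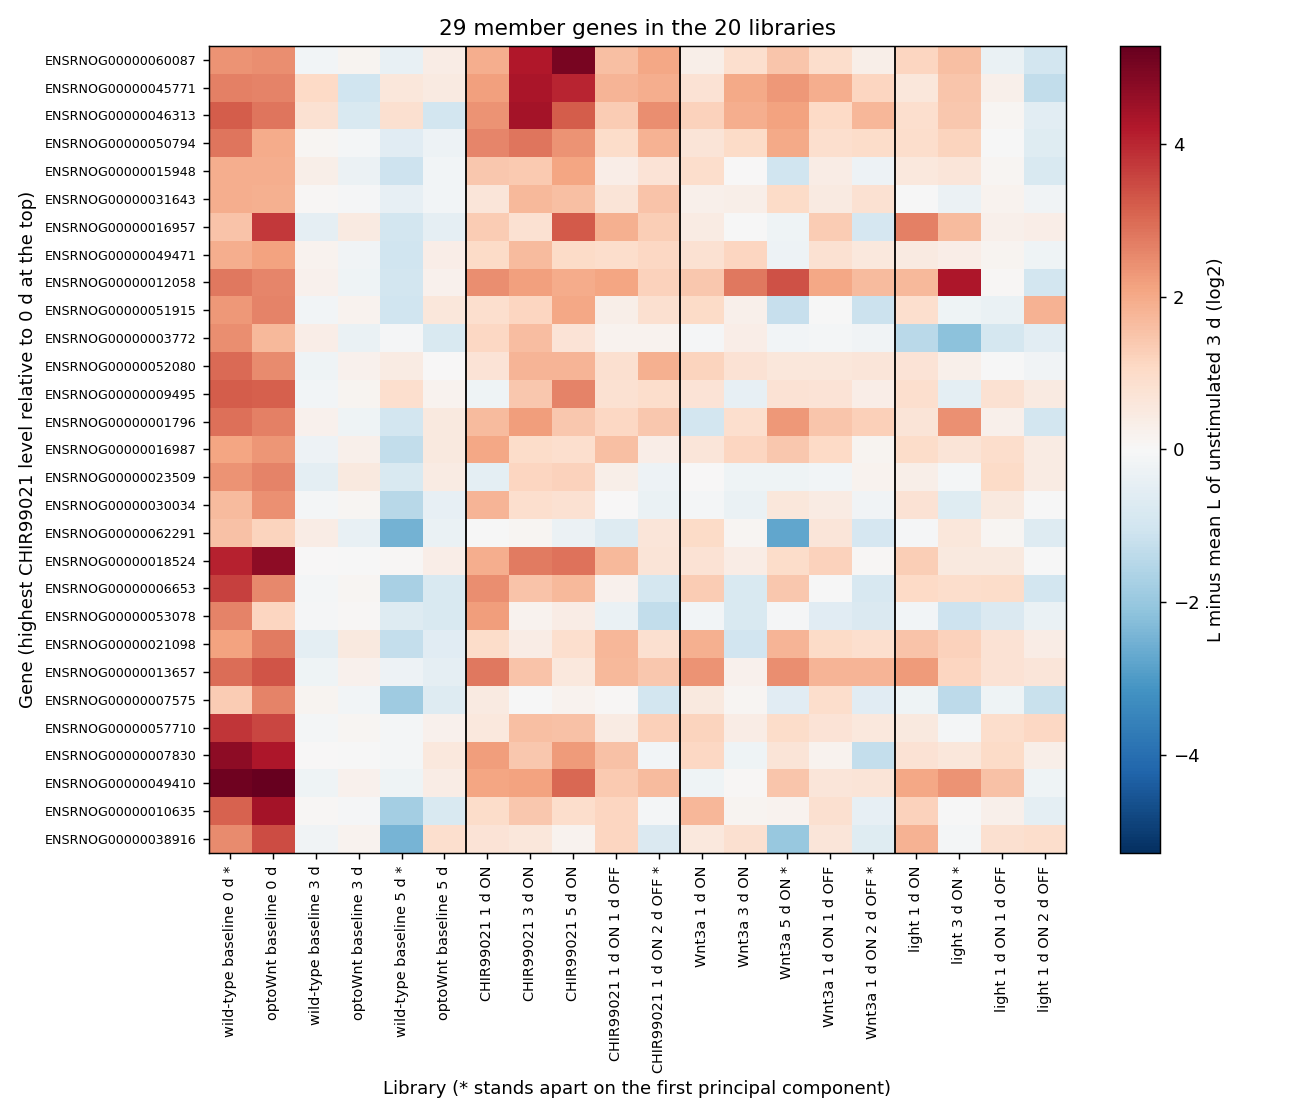
Rows are the 29 members, ordered by their CHIR99021 level relative to 0 d, and columns are the 20 libraries. Colour gives L minus the mean L of the unstimulated 3 d libraries (log2), and the red of 0 d returns most widely in the CHIR99021 columns. The rule chose the members for high values at 0 d and under sustained CHIR99021, so this is partly built in.

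The pair of members above their 0 d level under sustained CHIR99021 were singled out after their values were seen. ENSRNOG00000060087, the least abundant member, was at 9.18 and 9.66 CPM at 0 d, 0.78 and 1.18 CPM at 3 d and 0.485 and 1.55 CPM at 5 d (wild-type, then optoWnt). With CHIR99021 it was at 6.44, 36 and 62.8 CPM after 1, 3 and 5 d ON, and 1 d and 2 d OFF gave 4.92 and 7.16 CPM. Its ratio to 0 d of 524% was the highest among the members. Wnt3a gave 1.44, 2.62 and 4.46 CPM after 1, 3 and 5 d ON, where the first value is a single read, and light gave 3.27 and 4.96 CPM after 1 and 3 d. At 1 d and 2 d OFF it was at 2.8 and 1.43 CPM after Wnt3a, and at 0.533 and 0 CPM after light. All of these lay under the 0 d values.

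ENSRNOG00000045771 was at 50.9 and 49.5 CPM at 0 d, 15.9 and 3.03 CPM at 3 d, and 11.6 and 10.4 CPM at 5 d. With CHIR99021 it was at 36.5, 163 and 133 CPM after 1, 3 and 5 d ON, so its sustained level stood at 294% of 0 d. It was at 27.3 and 30.7 CPM after 1 d and 2 d without CHIR99021, still above every unstimulated library past 0 d. Its unstimulated 3 d libraries differed by genotype (15.9 CPM in wild-type, 3.03 CPM in optoWnt), and all stimulated cells were optoWnt. Wnt3a gave 12.9, 32.4 and 39.4 CPM after 1, 3 and 5 d ON and light 11.4 and 21.9 CPM after 1 and 3 d, so at 3 d both lay above the unstimulated values.

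The members were also above unstimulated 3 d in the libraries of 1 d ON, which the rule did not use. The reference for these and all further libraries is the mean L of the unstimulated 3 d libraries, since no unstimulated 1 d library was sequenced. The effect of the stimulus and the earlier time therefore cannot be told apart at 1 d. The median member was above this reference by 1.43 with CHIR99021, 0.87 with light and 0.76 with Wnt3a (log2). The lost and not kept genes were at 0.19, 0.35 and 0.17, and all 12710 genes tested at 0.03, 0.06 and −0.06. With CHIR99021, 15 of the 29 members were 1 or more above both unstimulated 3 d libraries, against 2.28% of all genes tested. With Wnt3a there were 7, against 3.05%, and with light 7, against 3.49%. The lost and not kept genes gave 8, 11 and 13 of 125 with CHIR99021, Wnt3a and light. The summed level was 1071 CPM with CHIR99021, 640 CPM with Wnt3a and 600 CPM with light.

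**Figure D3:**
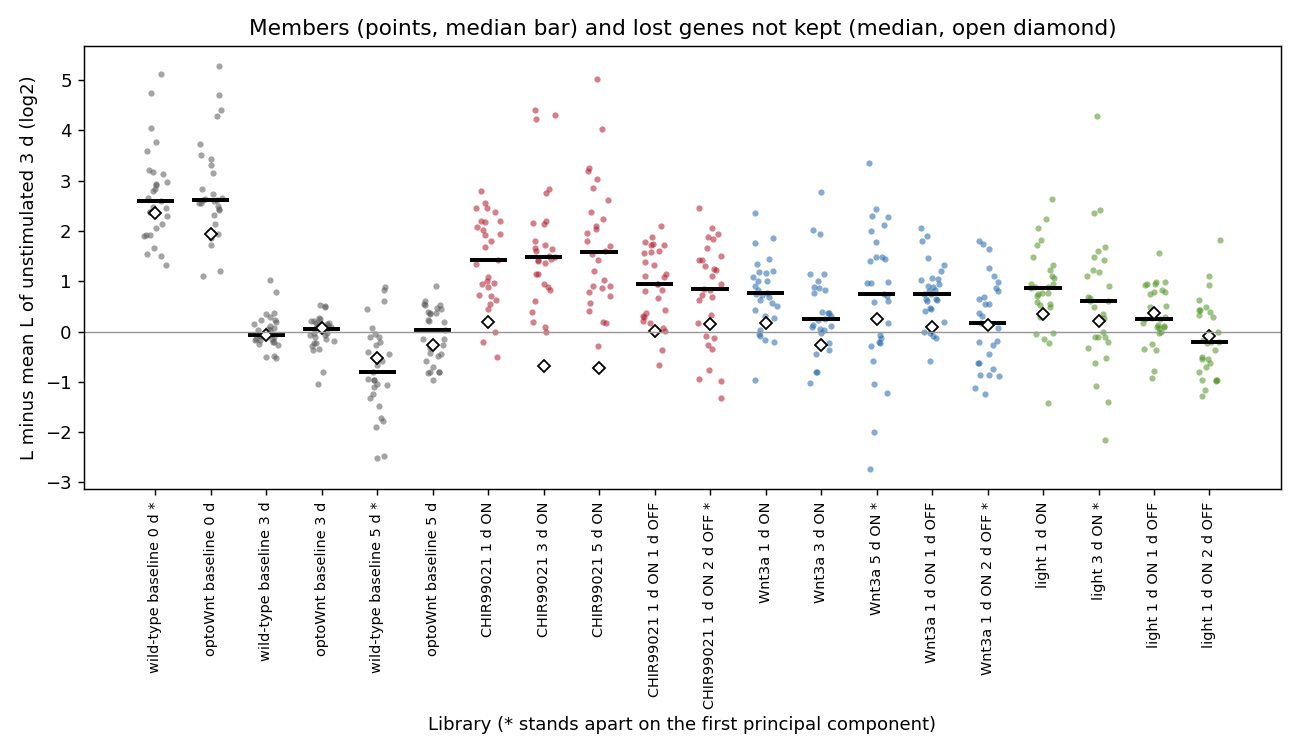
Points are the 29 members in each library, as L minus the mean L of unstimulated 3 d (log2), with their median as a bar; open diamonds are medians of the 125 lost and not kept genes. Member medians lie at 1.43, 1.49 and 1.59 in the CHIR99021 ON libraries, while the diamonds are at 0.19, −0.69 and −0.73. The rule used the libraries at 1.49 and 1.59 to split these sets, so their gap from −0.69 and −0.73 is partly built in. It did not use the library at 1.43.

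After 3 d of Wnt3a or light the members stood little above the unstimulated 3 d level. The summed level at 3 d was 511 CPM with Wnt3a and 524 CPM with light, against 333 and 316 CPM without stimulus. It was 1695 CPM with CHIR99021, but the rule chose the members for high values in that library, so this gap is partly built in. The median member was 0.25 above the reference with Wnt3a and 0.60 above it with light, a library that stood apart. The lost and not kept genes were at −0.27 and 0.22. With Wnt3a, 2 members were 1 or more above both unstimulated 3 d libraries, against 2.56% of all genes, and with light 6, against 7.8%. The lost and not kept genes gave 0 and 20 of 125. Both inducers placed 10 of the 29 members above both unstimulated 3 d libraries, against 17% of all genes tested. Wnt3a alone, whose library did not stand apart, placed 16 of the 29 above both, against 43.1% of all genes tested.

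In the edgeR fit to the 14 libraries outside the rule, the 3 d ON libraries of Wnt3a and light did not separate from unstimulated 3 d at the level of single genes. No gene of 12710 was called at an adjusted p under 0.05 (0%), none of the 28 members that passed the filter on low counts was called, and the smallest adjusted p of all genes was 0.989. At an unadjusted p under 0.05 there were 3 members, all higher, against 2.61% of all genes. DESeq2 called 16 genes, 1 of them a member. The median fitted log2 fold change of the members was 0.38, against −0.12 for lost and not kept genes and 0.01 for all genes. Without the libraries that stood apart, light 3 d ON among them, it was −0.03. That fit had only Wnt3a at 3 d ON and took the light part from other profiles, while the Wnt3a library itself was at a median of 0.25. Over the libraries left out singly the fitted median ran from 0.15 without light 3 d ON to 0.60 without Wnt3a 3 d ON. Without Wnt3a 3 d ON there were 9 members at an unadjusted p under 0.05, against 14% of all genes.

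The member with the highest level in these libraries relative to the reference was ENSRNOG00000012058. It was at 12.5 CPM with Wnt3a and 37.2 CPM with light after 3 d, and at 1.3 and 0.674 CPM in unstimulated wild-type and optoWnt cells. Its unstimulated values rest on 5 and 4 reads, and its light value is from a library that stood apart. At 0 d it was at 12.5 and 10.5 CPM, at 5 d 0 and 1.29 CPM, and with CHIR99021 at 9.76, 7.7 and 6.65 CPM after 1, 3 and 5 d ON. This member thus had a higher level with Wnt3a and light than with CHIR99021 at 3 d. The summed level had the reverse order, but the rule chose the members for high CHIR99021 values. Its log2 fold change for Wnt3a and light was 4.86 (SE 1.18), with an edgeR adjusted p = 1 and a DESeq2 adjusted p = 0.00513. Wnt3a at 5 d gave 18.9 CPM. At 2 d OFF it was at 3.58 CPM after CHIR99021, 5.16 CPM after Wnt3a and 0 CPM after light. The lowest members relative to the reference were ENSRNOG00000053078, at 5.23 CPM with Wnt3a and 4.13 CPM with light against 9.36 and 10.3 CPM unstimulated, and ENSRNOG00000003772, at 11.9 and 1.24 CPM against 11.7 and 6.91 CPM. For these the log2 fold changes were −1.11 (SE 0.72) and −0.87 (SE 0.67), both with an edgeR adjusted p = 1. The Wnt3a value of ENSRNOG00000003772 lay just above both unstimulated values, and its light value rests on 3 reads in the library that stood apart.

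Wnt3a at 5 d ON was in a profile that no test compared, and its library was the farthest from the others. The summed level of the members was 711 CPM there, against 271 and 323 CPM in the unstimulated 5 d libraries and 1453 CPM with CHIR99021. The rule chose the members for low values in the former and high values in the latter. Relative to unstimulated 3 d, the median member was 0.75 above, against 0.25 for lost and not kept genes and −0.11 for all genes tested. In this library 11 of the 29 members were 1 or more above both unstimulated 3 d libraries, against 12.1% of all genes tested. The lost and not kept genes gave 29 of 125.

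**Figure D4:**
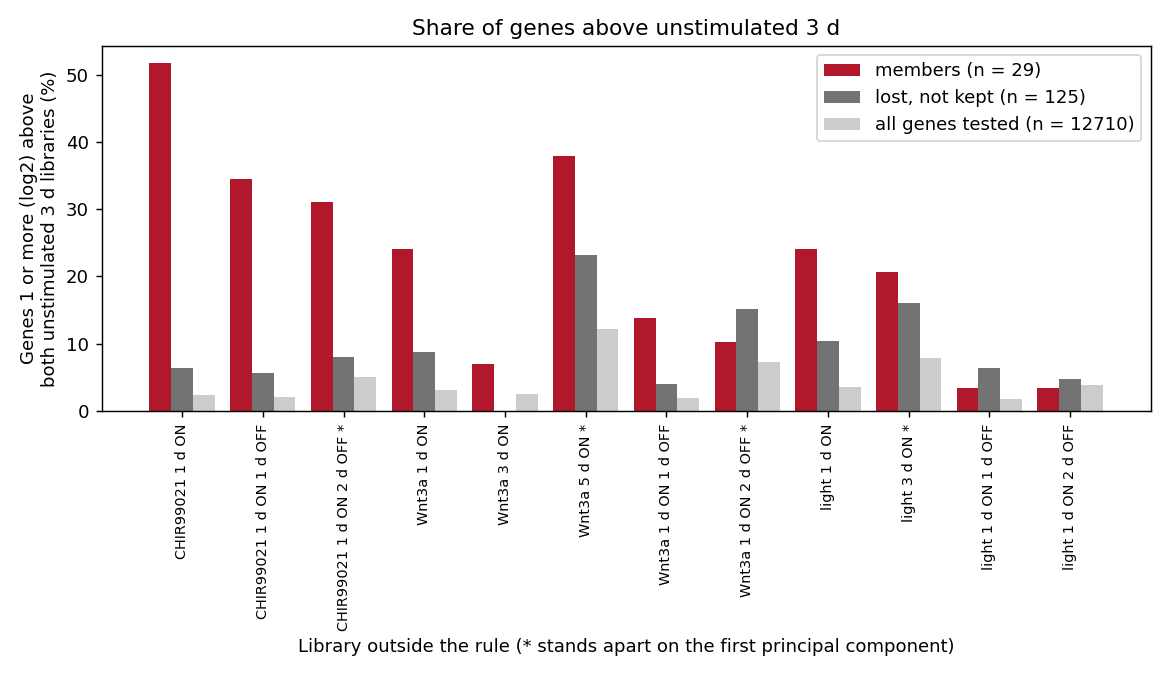
Bars give the percentage of genes at least 1 (log2) above both unstimulated 3 d libraries, for the 29 members, the 125 lost and not kept genes and all 12710 genes tested, in the 12 stimulated libraries outside the rule. The member bars are highest at CHIR99021 1 d ON (15 of 29 members) and lowest in the light OFF libraries (1 of 29 each).

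After 1 d of stimulus and 1 d without it, the members were above unstimulated 3 d by a median of 0.95 with CHIR99021, 0.74 with Wnt3a and 0.25 with light. The numbers 1 or more above both unstimulated 3 d libraries were 10 with CHIR99021 (2.06% of all genes), 4 with Wnt3a (1.97%) and 1 with light (1.68%). For the lost and not kept genes they were 7, 5 and 8 of 125. The 1 d OFF libraries are of day 2, and no unstimulated library of that day was sequenced.

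After 2 d without stimulus the libraries matched the unstimulated 3 d cells in age. The median member was 0.85 above them after CHIR99021, 0.17 above after Wnt3a and 0.21 below after light. The CHIR99021 and Wnt3a libraries stood apart and the light library did not. The summed levels were 727, 453 and 314 CPM, so that light was just under the 316 and 333 CPM seen without stimulus. There were 9 members 1 or more above both unstimulated libraries after CHIR99021, against 4.98% of all genes, 3 after Wnt3a, against 7.27%, and 1 after light, against 3.85%. The lost and not kept genes gave 10, 19 and 6 of 125 (8%, 15.2% and 4.8%), so their shares after Wnt3a and light were above those of the members. With all 3 inducers, 3 of the 29 members (10.3%) lay above both unstimulated 3 d libraries, a share near the 8.55% of all genes tested. The lost and not kept genes gave 18 of 125 (14.4%). After light alone, 7 of 29 members lay above both, against 32.6% of all genes tested and 33 of the 125 lost and not kept genes.

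Tested over the 3 inducers together, 2 d OFF against unstimulated 3 d gave no called gene (0% of 12710, smallest adjusted p = 0.826 in edgeR) and no called member. Unadjusted, 2 members were at a p under 0.05, both higher, against 5.67% of all genes. Without the CHIR99021 2 d OFF library there was 1, against 3.73%. DESeq2 called 1 gene and no member. The members' median log2 fold change was 0.36, against 0.06 for lost and not kept genes. It was 0.22 without the wild-type 3 d library and 0.62 without the optoWnt 3 d library. Without the libraries that stood apart, which leaves light alone at 2 d OFF, the fit gave 0.07. That value is a modelled mean of the 3 inducers, with the CHIR99021 and Wnt3a parts taken from other profiles. The light library itself was at a median of −0.21. When the light library was left out instead, 755 genes and 1 member were called, and 10 members had an unadjusted p under 0.05, against 25.5% of all genes, in a comparison that rested on the CHIR99021 and Wnt3a libraries that stood apart.

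The members highest after withdrawal relative to the reference were ENSRNOG00000046313 and ENSRNOG00000013657. ENSRNOG00000013657 was at 30.2 CPM after CHIR99021, 39.6 CPM after Wnt3a and 17 CPM after light at 2 d OFF, against 8.84 and 12.8 CPM without stimulus at 3 d and 88.5 and 115 CPM at 0 d. All 3 inducers placed it above both unstimulated values, with a log2 fold change of 1.35 (SE 0.46) and an edgeR adjusted p = 0.826. Its sustained CHIR99021 values, 31.7 and 16.2 CPM at 3 and 5 d, were lower than the 80.2 CPM at 1 d. Among the lowest were ENSRNOG00000007575, at 0.895, 1.43 and 0.654 CPM after CHIR99021, Wnt3a and light against 3.12 and 2.36 CPM, and ENSRNOG00000006653, whose values are given next. These values of ENSRNOG00000007575 rest on 4, 5 and 3 reads.

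Withdrawal itself was examined by setting 2 d OFF against 1 d ON, where the days also differ (3 against 1). Here most members were lower after withdrawal. With CHIR99021, Wnt3a and light alike, 13 of the 29 were lower at 2 d OFF than at 1 d ON, against 19.3% of all genes tested and 28 of the 125 lost and not kept genes. By inducer, 20 were lower with CHIR99021, against 49.9% of all genes, and 21 with Wnt3a, against 46.8%. With light, whose libraries here did not stand apart, 25 were lower, against 55.8%. The lost and not kept genes gave 66, 63 and 88 of 125. The edgeR fit called 6 genes of 12710 (0.0472%), all higher at 2 d OFF, and no member. At an unadjusted p under 0.05 there were 10 members, all lower, against 14.2% of all genes, and 5 without CHIR99021 1 d ON, against 10.1%. The members' median log2 fold change was −0.93, against −0.10 for lost and not kept genes and 0.04 for all genes. It was −1.13 without the libraries that stood apart, in a fit that had only light at 2 d OFF. The smallest adjusted p of a member was 0.0894, and DESeq2 called 366 genes, 4 of them members. Leaving out the light 2 d OFF library gave 2086 called genes, 7 of them members, and 0 genes were called without CHIR99021 1 d ON, light 1 d ON or CHIR99021 2 d OFF.

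ENSRNOG00000006653 had the largest such difference of the members. At 1 d ON it was at 25.9 CPM with CHIR99021, 11.5 CPM with Wnt3a and 9.26 CPM with light, and at 2 d OFF at 1.57, 1.72 and 1.53 CPM. The groups did not overlap, and the 2 d OFF values lay below the 3.64 and 4.21 CPM of unstimulated 3 d cells. At 1 d OFF it was at 4.7 CPM after CHIR99021, 3.8 CPM after Wnt3a and 8.53 CPM after light, between the 1 d ON and 2 d OFF values of each inducer. Its log2 fold change was −3.20 (SE 0.64), with an edgeR adjusted p = 0.0894 and a DESeq2 adjusted p = 0.000584. At 0 d it was at 58.4 and 27.9 CPM, and under sustained CHIR99021 at 12.9 and 14.9 CPM.

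ENSRNOG00000010635 was also lower at 2 d OFF with each inducer, while at 1 d OFF it was lower than at 1 d ON after Wnt3a and light but not after CHIR99021. It was at 25.4, 44.5 and 30.5 CPM after 1 d of CHIR99021, Wnt3a and light, at 28.9, 23 and 15.2 CPM after 1 d OFF, and at 11.6, 8.9 and 8.5 CPM after 2 d OFF. The 2 d OFF values lay below the 13.3 and 11.8 CPM of unstimulated 3 d cells, by little. The log2 fold change was −1.73 (SE 0.37), with an edgeR adjusted p = 0.0895 and a DESeq2 adjusted p = 0.0027. Its 0 d levels were 118 and 285 CPM, and CHIR99021 held it at 34.6 and 24.5 CPM at 3 and 5 d, among the smallest shares of 0 d at 14.7%.

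**Figure D5:**
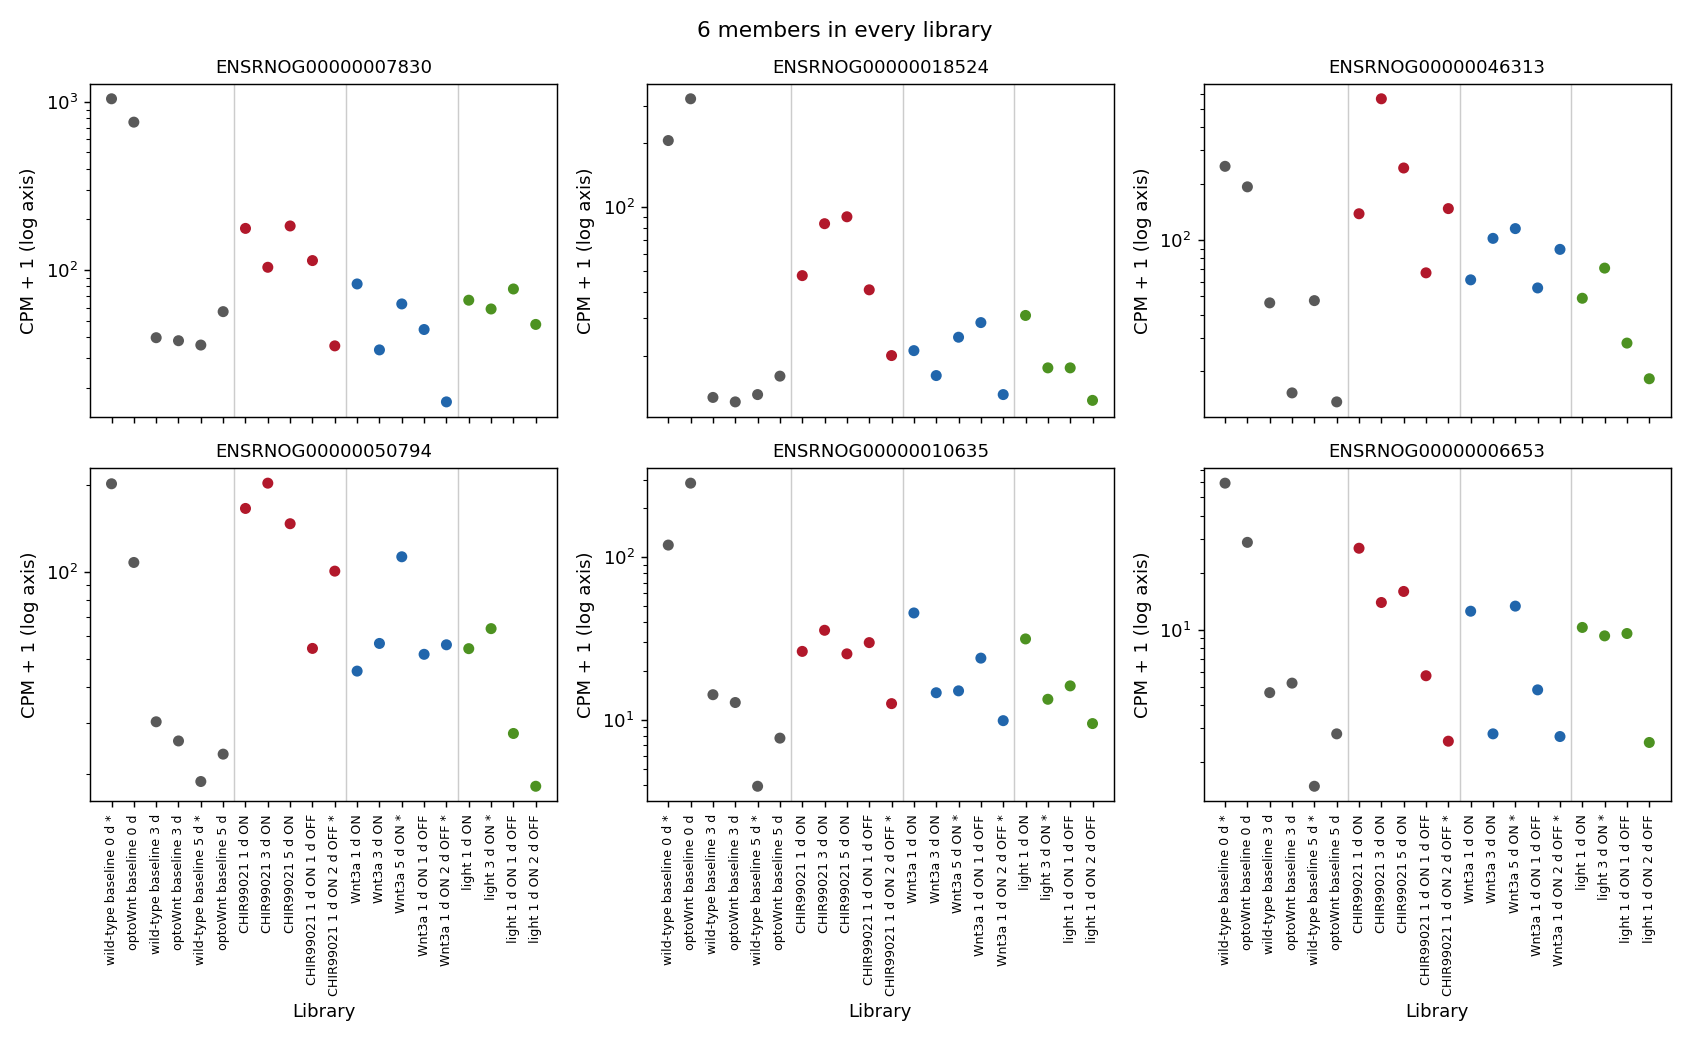
CPM plus 1 on a log axis of 6 members in each of the 20 libraries, grey without inducer, red CHIR99021, blue Wnt3a and green light; an asterisk marks libraries that stand apart. The lower right panel shows ENSRNOG00000006653 at 1.53 to 1.72 CPM at 2 d OFF with all 3 inducers, and the panels of ENSRNOG00000046313 and ENSRNOG00000050794 show CHIR99021 above Wnt3a and light at each matched profile.

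The inducers were compared at matched profiles outside the rule, namely 1 d ON, 1 d OFF and 2 d OFF. CHIR99021 was the highest of the 3 at all of these profiles for 7 of the 29 members, against 3.09% of all genes tested and 6 of the 125 lost and not kept genes. It was highest for 11 of 29 over the first pair of profiles, none of whose libraries stood apart, against 8.04% of all genes and 11 of the 125. The median difference of CHIR99021 from the mean of Wnt3a and light was 0.70 at 1 d ON, 0.47 at 1 d OFF and 0.54 at 2 d OFF (log2), and −0.07, −0.18 and 0.26 for lost and not kept genes. In the edgeR fit 1 gene of 12710 was called (0.00787%), and no member was, with a smallest adjusted p of 0.373 among the members. At an unadjusted p under 0.05 there were 11 members, all higher with CHIR99021, against 3.99% of all genes and 4 of 123 lost and not kept genes. This count was 5 without CHIR99021 1 d ON (2.23% of all genes) and 6 without CHIR99021 1 d OFF (4.48%). It was 7 without CHIR99021 2 d OFF (2.57%), Wnt3a 1 d OFF (4.44%) or Wnt3a 2 d OFF (5.55%). The median log2 fold change of the members was 0.72, with 25 of 28 above 0, against −0.04 for lost and not kept genes, and it was 0.51 without the libraries that stood apart. DESeq2 called 45 genes and no member.

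The members with the smallest p in this comparison were ENSRNOG00000050794 and ENSRNOG00000046313, which were singled out after their values were seen. ENSRNOG00000050794 was at 165 CPM with CHIR99021, 44.5 CPM with Wnt3a and 53.4 CPM with light at 1 d ON. At 1 d OFF the values were 53.5, 51 and 26.7 CPM, and at 2 d OFF 99.8, 55.1 and 17.2 CPM. CHIR99021 was highest at each profile, by a small margin over Wnt3a at 1 d OFF, and the log2 fold change was 1.29 (SE 0.32) with an edgeR adjusted p = 0.373. Unstimulated cells gave 201 and 107 CPM at 0 d, 29.4 and 25.1 CPM at 3 d and 17.9 and 22.5 CPM at 5 d. With sustained stimulus it was at 202 and 146 CPM with CHIR99021 at 3 and 5 d, 55.7 and 112 CPM with Wnt3a, and 62.8 CPM with light at 3 d. Each of these lay above all unstimulated 3 and 5 d values.

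ENSRNOG00000046313 was at 137, 60.3 and 47.9 CPM with CHIR99021, Wnt3a and light at 1 d ON, at 65.8, 54.5 and 27.2 CPM at 1 d OFF, and at 146, 88.1 and 17.2 CPM at 2 d OFF. The order CHIR99021, Wnt3a, light held at all 3 profiles. The log2 fold change of CHIR99021 over the others was 1.29 (SE 0.37), with an edgeR adjusted p = 0.578. It was at 246 and 191 CPM at 0 d, and at 565 and 241 CPM under sustained CHIR99021, with 101 and 114 CPM under Wnt3a at 3 and 5 d and 69.8 CPM under light at 3 d. Without stimulus the genotypes differed: wild-type cells were at 45.2 CPM (3 d) and 46.5 CPM (5 d) and optoWnt cells at 14.3 and 12.7 CPM. Light at 2 d OFF, at 17.2 CPM, thus lay near the optoWnt value and below the wild-type one.

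Wnt3a and light were compared at 1 d ON, 3 d ON, 1 d OFF and 2 d OFF. Wnt3a was above light at all 4 matched profiles for 8 of the 29 members, against 8.64% of all genes tested, and light above Wnt3a at all 4 for 1, against 7.4%. The lost and not kept genes gave 6 and 18 of 125. The edgeR fit called no gene (0%, smallest adjusted p = 0.0511), and 6 members had an unadjusted p under 0.05, of which 5 were higher with Wnt3a and 1 with light, against 10.7% of all genes. This count was 0 without the libraries that stood apart, against 6.9% of all genes. It was 2 without Wnt3a 1 d OFF (4.98%) or Wnt3a 2 d OFF (9.97%), and 3 without light 2 d OFF (16.8%). The smallest adjusted p of a member was 0.41, and DESeq2 called 116 genes and no member. The median log2 fold change of the members was 0.19, against −0.29 for lost and not kept genes, and it was −0.06 without Wnt3a 1 d ON 1 d OFF. Of the 6 members at an unadjusted p under 0.05 in edgeR, the 1 higher with light was the most abundant member, ENSRNOG00000007830. Its log2 fold change was −0.81 (SE 0.32), with an edgeR adjusted p = 0.415. At 1 d ON it was lower with light (65.3 CPM) than with Wnt3a (81.8 CPM), so it is not the member with light higher at all 4 profiles.

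Restricting the members to the 22 that the optoWnt libraries alone also selected left the order of the inducers as it was. Their medians relative to unstimulated 3 d at 1 d ON were 1.87 with CHIR99021, 0.88 with light and 0.76 with Wnt3a, and at 2 d OFF they were 1.24, −0.29 and 0.46, respectively. Sustained Wnt3a and light gave 0.27 and 0.79 at 3 d. These 22 genes still met the conditions in the wild-type libraries too. All 52 genes met with the optoWnt libraries alone had smaller medians at 1 d ON, at 1.05 with CHIR99021, 0.62 with light and 0.37 with Wnt3a. At 2 d OFF they were at 0.77, −0.20 and 0.51, and under sustained Wnt3a and light at 0.41 and 0.52 at 3 d.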

How the data were processed

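The authors deposited whole-number read counts per Ensembl gene, without normalization. The labels name QuantSeq 3′ libraries prepared with the low-input protocol, and the submitters' processing notes name Bowtie2, Subread, featureCounts and the build Rnor_6.0. Strand setting, versions and multi-mapping options were not given in the sources used here, so that reads of near-identical or overlapping genes may be misassigned. Wells were tied to libraries through the labels. CPM used plain library totals, with no length scaling, and a pseudocount of 1 CPM in L. Floors of 3 reads cover counting error only.

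The rule used 6 libraries. Tests used the other 14, in 1 edgeR 4.0.16 quasi-likelihood fit (R 4.3.3, limma 3.58.1, TMM, filterByExpr, 12710 genes, 8 coefficients for profile and inducer, 6 residual degrees of freedom, common biological coefficient of variation 0.379). The model assumes additive inducer and profile effects, and has no genotype term. P-values were adjusted by Benjamini-Hochberg over all genes tested, and called means an adjusted p under 0.05. The SE is the fold change divided by the root of its F statistic. Alternatives were DESeq2 1.42.0, its size factors, no filter, a genotype term, all 20 libraries, libraries left out, and other thresholds of the rule. Unstimulated pairs differed beyond sampling noise (chi-square per degree of freedom 31.2 to 53.8).

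The members and lists were chosen with earlier results of these data known. None of the 32623 IDs could be matched to a symbol (0 matched), so the gene lists, cell type markers and sequences were not used. Of the naming rule (the most abundant, called, extreme and threshold members), at most 2 IDs per direction and comparison are printed.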

Additional observations from a re-analysis of the deposited data

Results flagged for a closer look

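At 2 d OFF, the same withdrawal left the members' median on opposite sides of unstimulated 3 d: 0.85 and 0.17 above it after CHIR99021 and Wnt3a, and −0.21 after light (log2). The difference between inducers at this profile was not tested, since there is 1 library each. The 2 libraries above the reference are those that stood apart on the first principal component, and their part in the result was not tested.

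Wnt3a 5 d ON entered no comparison, and its summed member level was 711 CPM, against 333 and 316 CPM in the unstimulated 3 d libraries. This library had the lowest score on the first principal component, −110, and its part in the value was not tested.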

How the results depend on the processing

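Counts of called genes moved with the processing in 25 of 62 settings, and counts of called members in 8 of 62. The members' median log2 fold change changed sign in 2 of 62: to −0.03 for Wnt3a and light 3 d ON without the libraries that stood apart, and to −0.06 for Wnt3a against light without Wnt3a 1 d ON 1 d OFF, which is the low end of a range of −0.06 to 0.40 over the libraries left out singly. In the order Wnt3a and light 3 d ON, 2 d OFF against unstimulated 3 d, 2 d OFF against 1 d ON, CHIR99021 against the others, and Wnt3a against light, DESeq2 called 16, 1, 366, 45 and 116 genes, with 1, 0, 4, 0 and 0 members. Without the filter, 30, 28, 475, 82 and 199 genes were called, with 1, 0, 3, 3 and 0 members. With all 20 libraries, 2 d OFF against 1 d ON gave 0 genes, CHIR99021 134 genes and 5 members, and Wnt3a against light 1 gene. That fit includes the libraries of the rule. Without the libraries that stood apart these comparisons gave 0, 8 and 3 genes. A genotype term gave 2 genes for CHIR99021, and DESeq2's size factors 1 gene for Wnt3a against light. Leaving out 1 library at a time gave 0 to 755 genes (0 to 1 member) for 2 d OFF against unstimulated 3 d, 0 to 2086 genes (0 to 7 members) for 2 d OFF against 1 d ON, 1 to 13 genes for CHIR99021 and 0 to 20 for Wnt3a against light, the highest each time without light 1 d ON 2 d OFF. The cause of these moves was not tested.

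The rule gave 52 genes with optoWnt and 544 with wild-type unstimulated libraries alone, 18 with a fall of 2 or more, and 53 with a CHIR99021 margin of 0.5 or more. With TMM-scaled totals it gave 32, all 29 members among them. With CHIR99021 at 3 d or 5 d alone it gave 31 or 36 genes, and 27 members each time. Against the wild-type or the optoWnt 3 d library alone (chosen after seeing the data), 12 of 24 medians moved by more than the spread and none changed sign. The labels give no replicate numbers, so no pairing by culture was possible. The fit did match inducers by profile, and 2 d OFF with 1 d ON by inducer. Depth limits the low members: in the shallowest library 3 reads are 4.31 CPM.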
